A study of Homo sapiens with 4 samples.

Results

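Collagen chains, laminin chains and matrix glycoproteins were read across 4 arrays of M14, an established human melanoma cell line. The set held 47 named genes, taken as the probe sets that the platform annotation gives to 1 of these genes alone. Of them 46 had such a probe set, among 19775 genes named in this way, and together they had 138 probe sets. No probe set of LAMA3, a laminin alpha chain gene, was analysed here. M14 cells carried the bicistronic pIRES2-eGFP plasmid, either empty or with the coding region of ARHGAP8, N-terminally FLAG-tagged and in a splice form that lacks 1 exon. The series title concerns activation of ARHGAP8 in melanoma and cell motility. Each plasmid was represented by 1 stable line, selected with G418 and sorted for eGFP, and M14 without a plasmid was not analysed here. Both lines were grown for 4 days in serum-containing medium, on plastic coated with bovine type I collagen (2D, called plastic here) or embedded in growth factor-reduced Matrigel (3D, called gel here). Each of the 4 combinations had 1 array, so a ratio of 2 arrays has no replicate error.

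The extracellular matrix that these genes encode has 2 main layers. Fibrillar collagens such as type I form the interstitial fibres, while type IV collagen, laminins, nidogens and the proteoglycans perlecan and agrin form the basement membrane sheet. Matricellular proteins such as thrombospondins, tenascin-C, osteopontin and the CCN family bind this scaffold and signal to cells more than they build it. Matrigel is itself an extract of mouse basement membrane, rich in laminin, type IV collagen and nidogen, and the plastic was coated with type I collagen, so both cultures met matrix protein from outside the cells. Melanoma cells are known for fibronectin, tenascin-C, osteopontin and SPARC.

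Values are MAS5 signals, an Affymetrix summary of a probe set on a linear scale. Signals below the median of all scaled signals, 72.3, were set to that floor before log2 was taken, since low MAS5 signals are noisy. Where a pair of values is given for a culture, the empty-vector line comes first and the ARHGAP8 line second. A gene was tested if it lay above the floor on at least 2 of the 4 arrays, which held for 31 of the 46 genes. Plasmid and culture entered limma as additive terms over 13239 genes, with a threshold of 0.05 on the Benjamini-Hochberg adjusted p. Its 1 residual degree of freedom is the difference between the lines' gel ratios, so the moderated standard error (SE) leans on genes of like signal and does not measure the spread between cultures or between separately made lines.

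All 4 probe sets annotated to ARHGAP8 also name a readthrough gene, and none exceeded 14.8 (lowest 4.02), so the transgene was not seen and the array labels could not be checked through it. The ARHGAP8 gel array stood apart in its control probe sets, with a median 18S ribosomal RNA signal of 626 against 27.7 to 49.4 on the other arrays. The 3' over 5' ratio of ACTB, a sign of RNA integrity, was 1.10 and 1.05 on plastic and 1.23 and 1.32 in gel. That of GAPDH was 0.874 and 0.899 on plastic and 0.901 and 0.925 in gel. Of 11 melanocytic markers with a probe set 10 were above the floor on at least 2 arrays, with summed signals of 9739 and 6883 on plastic and 11391 and 10270 in gel, and PMEL was below the floor on every array. Markers of fibroblasts, the usual source of interstitial matrix, were above it for 4 of 10 genes, with summed signals of 554 to 758 on plastic and 784 to 907 in gel, while PDGFRA, PDGFRB, LUM, TCF21 and DPT stayed below it on all 4 arrays. Above it on at least 2 arrays were 2 of 8 endothelial, 2 of 8 epithelial and 2 of 6 leukocyte markers. The summed signals of the endothelial list ran from 505 to 569 and of the leukocyte list from 540 to 610. Those of the epithelial list were 994 and 1189 on plastic and 593 and 719 in gel. There KRT18 fell by 1.13 log2 (adjusted p 0.00024 in limma). Of the 10 tested melanocytic markers 4 rose and 0 fell in gel, against 2.83% and 4.15% of all tested genes. For MLANA the gain was 0.17 log2 with the empty vector and 1.84 with ARHGAP8, and for TYR 0.45 and 1.30. TYRP1 gained 1.44 and 1.50 and MITF 0.33 and 0.97. SOX10 was at -0.18 and -0.51 without passing (adjusted p 0.228 in limma). GPR143 and TYRP1 passed for the plasmid, as did 0.128% of all tested genes. With ARHGAP8 over empty vector they were at -1.49 and 1.10 log2 (adjusted p 0.00667 and 0.0107 in limma). CDH5, VWF, EPCAM, CDH1, PTPRC and CD14 were below the floor on all 4 arrays. Above it on all 4 were DCN, FAP and MFAP5 of the fibroblast list, PECAM1, KRT8, KRT18, CD79A and ITGAM. PECAM1 read 268 to 343, CD79A 290 to 369 and FAP 122 to 218. THY1 was above it on 3 arrays and CLDN5 on 2. The part of these array and marker differences in the results below was not tested.

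Large parts of the matrix repertoire were not above the floor. Of the 46 genes, 26 were above it on all 4 arrays, 5 on 1 array and 10 on none. The 10 were COL3A1 and COL11A1 of the fibrillar collagens, COL4A2 and COL4A5 of the type IV network, COL6A3, COL9A3, the laminin chain gene LAMA1, the nidogen gene NID2, the periostin gene POSTN and the fibrillin gene FBN1. COL5A1, COL4A1, COL4A3, COL13A1 and NID1 exceeded it on 1 array each. The floor is a statistical limit and not a detection call, so a gene under it is not shown to be silent. COL13A1, a transmembrane collagen gene, shows how the choice of probe set bears on this, since 1 of its probe sets outside the gene-level test read 84.7 and 78.1 on plastic and 81.1 and 73.7 in gel.

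**Figure D1:**
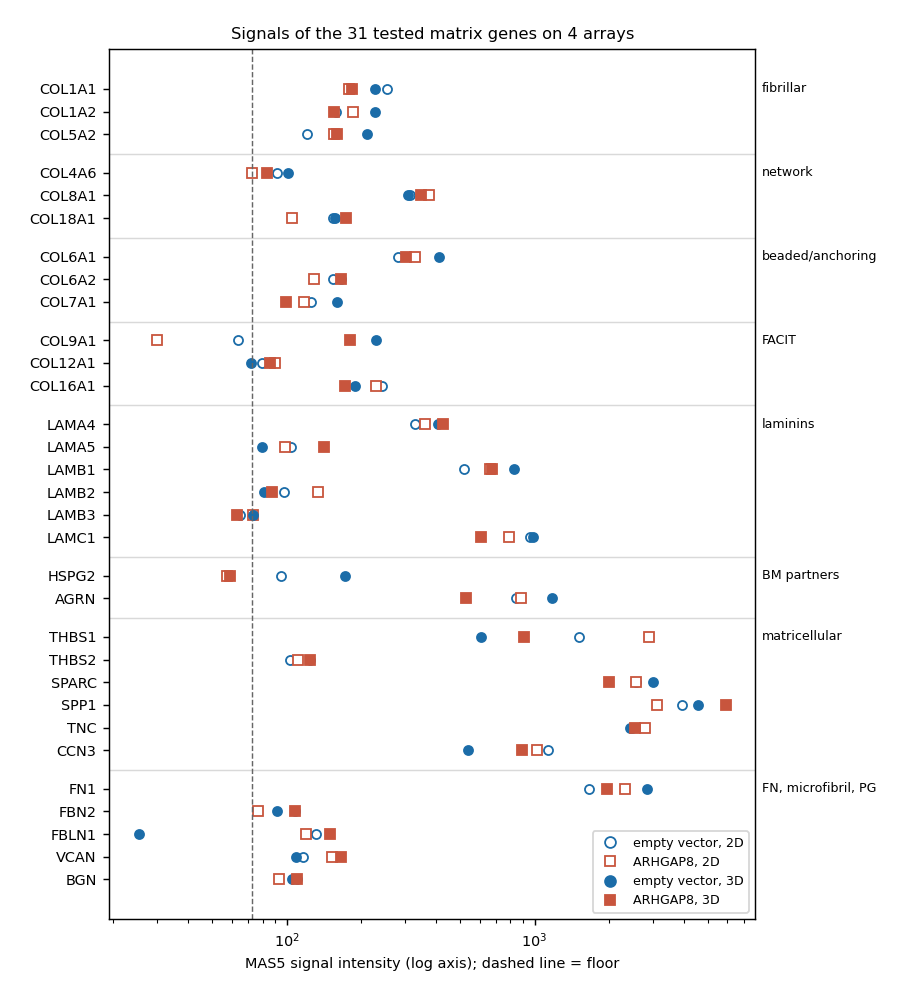
MAS5 signal (log axis) of the 31 tested matrix genes on the 4 arrays, 1 point per array, grouped by protein class, with the floor of 72.3 as a dashed line. THBS1 and CCN3 have both gel points left of both plastic points, COL9A1 has both gel points right of them, and for most other genes the gel and plastic points interleave. Levels of different genes are not comparable, since each comes from its own probe set.

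The comparison of gel with plastic asked how embedding in basement membrane gel changed the matrix genes. THBS1, which encodes the adhesive glycoprotein and TGF-beta activator thrombospondin-1, fell 2.82-fold in gel. CCN3, a matricellular CCN family gene, fell 1.55-fold, and COL9A1, the alpha 1 chain of the fibril-associated collagen IX, rose by at least 2.82-fold, since it was under the floor on both plastic arrays. These 3 of the 31 tested genes passed, 1 higher and 2 lower, that is 9.68% against 6.99% of all 13239 tested genes (2.83% higher and 4.15% lower in gel). The share among the matrix genes is near this background. After quantile or cyclic loess normalization the split was 1 higher and 1 lower. The other 28 did not pass, with culture differences from -0.44 to 0.57 log2 and moderated SEs of 0.16 to 0.28. The median over the 31 was 0.06 log2, against 0.03 over all tested genes. An unadjusted p under 0.05 in limma was reached by 4 of the 31, against 2778 of all 13239 tested genes. Counts under other settings, given below, of calls as well as of unadjusted p, have no background over all genes beside them. A count of 0 there is thus not a trait of the matrix genes. None of the 3 calls held under every setting. The count was 1 with the floor at the 75th percentile of signals, and limma made 0 calls with the mean of each gene's probe sets (5 members at an unadjusted p under 0.05), without a filter on low genes (4), without the plasmid in the model (4) and with any 1 array left out (2 to 6).

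THBS1 had signals of 1513 and 2908 on the plastic arrays and of 610 and 907 on the gel arrays. Both gel values were below both plastic values, and in each culture the ARHGAP8 line was the higher of the pair. The gel over plastic difference was -1.31 log2 for the empty vector and -1.68 for ARHGAP8, and -1.50 ± 0.16 (moderated SE, 4 arrays) in the additive fit (adjusted p 5.89e-06 in limma). The ratio within the empty-vector line, which does not use the ARHGAP8 gel array, was 2.48-fold.

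Probe sets of 1 gene share their RNA and are no replicates, but they show how far a value rests on the probes. In a limma fit with a row per probe set, 61 of the 138 were tested and 6 passed for culture, 9.84% against 3.49% of all 28651 tested probe sets. For THBS1 these were the probe set used for the gene and 2 more. The first of those read 632 and 1985 on plastic and 285 and 440 in gel, and the other read 654 and 1234 on plastic and 311 and 357 in gel. Their fitted differences were -1.66 and -1.43 log2, close to that of the probe set used for the gene. A pair of other tested THBS1 probe sets did not show this. The first read 151 and 112 on plastic and 157 and 215 in gel, a difference of 0.50 log2 that did not pass, and the other gave 0.15. Averaged over the gene's 7 probe sets, the THBS1 difference shrank to -0.68 log2 and did not pass.

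The window around the THBS1 start site is printed because THBS1 is the member with the smallest adjusted p for culture. It runs from 250 bases before to 50 after the start in RefSeq's GRCh38.p14 table, at chr15:39580829-39581128 on the plus strand. Capitals mark matches on either strand to the 4 motifs searched for. The GC box core is written GGGCGG, while CCAAT boxes carry their letters in their name. The others are the core of hypoxia response elements and some E-boxes, and the AP-1 site, spelled below the sequence.
THBS1: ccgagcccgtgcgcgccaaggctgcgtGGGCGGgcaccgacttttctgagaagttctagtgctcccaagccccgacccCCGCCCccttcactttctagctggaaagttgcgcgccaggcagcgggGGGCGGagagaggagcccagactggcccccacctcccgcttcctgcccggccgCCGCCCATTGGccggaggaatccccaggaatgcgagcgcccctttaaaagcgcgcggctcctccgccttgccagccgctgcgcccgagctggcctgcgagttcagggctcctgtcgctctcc
It holds 4 GC box matches and 1 CCAAT match, the latter abutting a GC box match on the minus strand, and no match to the other motifs. The GC box core occurs in 45.0% of all 35116 such windows and in 31 of the 43 windows of 37 matched matrix genes, and the CCAAT box in 34.6% of all and 12 of the 43. The hypoxia element core, ACGTG, is in 21.4% of all windows and 6 of the 43, and the AP-1 site, TGANTCA with N for any base, in 7.71% and 3 of the 43. A match describes letters and shows no binding, and a missing match says nothing about a factor.

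CCN3 had signals of 1135 and 1023 on plastic and of 540 and 892 in gel. Both gel values lay below both plastic values, but the ARHGAP8 gel value came within 0.20 log2 of its plastic counterpart, against 1.07 in the empty-vector line. The additive difference was -0.63 ± 0.18 log2 (adjusted p 0.0410 in limma), past the threshold by little. Of the alternatives with a test, it passed in limma under 1 alone, with genes above the floor on all arrays (adjusted p 0.0195), and missed the threshold under the other 13, at 0.0507 to 0.757. The gene's other probe set read 961 and 869 on plastic and 383 and 438 in gel, a difference of -1.16 log2 that passed in the probe set fit. The probe set used for the gene did not pass in that fit (adjusted p 0.0963 in limma).

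COL9A1 read 63.9 and 30.1 on plastic, both under the floor, and 230 and 181 in gel. Against the floor the gel signal was at least 3.19-fold higher in the empty-vector line and at least 2.50-fold higher in the ARHGAP8 line. The additive bound was 1.50 ± 0.25 log2 (adjusted p 0.000744 in limma). COL9A1 met the filter only through its 2 gel arrays, where it was high. Both plastic values were set to the same floor, so the SE and p depend on the filter and the floor. Its other probe set gave 83.2 and 64.8 on plastic and 76.7 and 89.6 in gel, with no such separation and a difference of 0.10 log2. COL9A3, whose product joins that of COL9A1 in the collagen IX trimer, was under the floor on all 4 arrays, at 11.7 and 49.5 on plastic and 11.5 and 14.7 in gel. The value of COL9A1 thus rests on 1 probe set. With the floor at the 75th percentile of signals its difference was 0.20 log2 and did not pass.

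RefSeq gives COL9A1 a pair of start sites, 19887 bases apart, from which a longer and a shorter product are made. Their windows are printed because the 2 probe sets disagree, although which of the transcripts each probe set reads was not analysed here. They lie on the minus strand of GRCh38.p14 at chr6:70303035-70303334 (upstream) and chr6:70283148-70283447 (downstream), with the same capitals as above.
COL9A1 upstream: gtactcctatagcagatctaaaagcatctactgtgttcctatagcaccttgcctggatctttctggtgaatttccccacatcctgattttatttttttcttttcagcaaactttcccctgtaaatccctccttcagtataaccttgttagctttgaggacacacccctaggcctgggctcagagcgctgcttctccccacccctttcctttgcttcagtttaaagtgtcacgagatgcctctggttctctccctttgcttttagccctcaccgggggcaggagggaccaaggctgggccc
COL9A1 downstream: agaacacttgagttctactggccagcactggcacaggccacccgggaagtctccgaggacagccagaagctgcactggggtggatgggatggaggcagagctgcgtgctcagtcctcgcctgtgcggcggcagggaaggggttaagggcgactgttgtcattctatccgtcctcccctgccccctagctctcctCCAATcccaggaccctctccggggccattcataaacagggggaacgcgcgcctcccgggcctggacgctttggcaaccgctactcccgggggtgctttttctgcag
The upstream window holds none of the 4 motifs and the downstream window 1 CCAAT match. Their G and C content is 49.3% and 63.3%, against 70.0% in the THBS1 window.

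**Figure D2:**
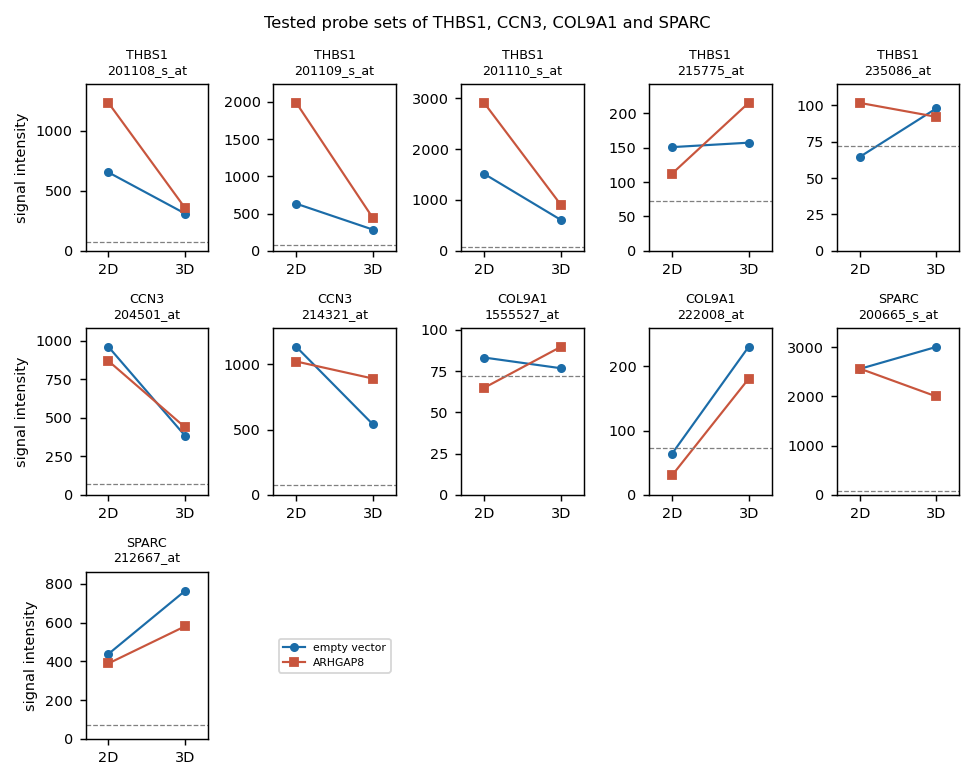
MAS5 signal on plastic (2D) and in gel (3D) for each tested probe set of THBS1, CCN3, COL9A1 and SPARC, with 1 array per point, lines joining the arrays of 1 cell line and the floor of 72.3 dashed. Lines of both cell lines go down for 3 THBS1 and both CCN3 probe sets and up for 1 probe set each of COL9A1 and SPARC, whereas the other probe sets of THBS1, COL9A1 and SPARC do not share these slopes.

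Among the fibrillar collagens, COL1A1 read 253 and 179 on plastic and 228 and 184 in gel, and COL1A2, whose chain joins it in type I collagen, read 158 and 186 on plastic and 228 and 155 in gel. The ranges of the cultures overlapped for both chains, and neither passed (-0.05 and 0.13 log2). COL5A2, a chain of the regulatory collagen V, was higher in gel by 0.81 log2 in the empty-vector line and by 0.04 in the ARHGAP8 line without passing, and its partner COL5A1 was above the floor on 1 plastic array alone. The other probe set of COL5A2 gave 0.58 and 0.19.

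Of the listed type IV collagen genes, whose chains form the network of the basement membrane, COL4A6 alone was tested. COL4A1 read 44.1 and 47.4 on plastic and 86.9 and 47.0 in gel, and COL4A2, the other chain of its trimer, 12.9 to 21.2 on the 4 arrays. COL4A1 was thus above the floor on the empty-vector gel array alone. The 2 genes lie head to head, with RefSeq start sites 127 bases apart, and the stretch that both windows share is printed because both chains were low, at chr13:110307108-110307333 on the plus strand of GRCh38.p14, the direction of COL4A2.
COL4A1 and COL4A2 shared stretch: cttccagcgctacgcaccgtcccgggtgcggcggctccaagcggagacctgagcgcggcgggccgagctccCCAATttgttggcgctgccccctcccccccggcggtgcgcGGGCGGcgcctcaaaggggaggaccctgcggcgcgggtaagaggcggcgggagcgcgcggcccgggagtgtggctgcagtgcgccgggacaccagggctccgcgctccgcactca
It holds 1 GC box and 1 CCAAT match. COL4A6 was above the floor on all 4 arrays, at 72.3 to 101, and did not pass (0.18 log2). COL4A4, from the list of other collagens, read 101 and 81.8 on plastic and 127 and 142 in gel and did not pass (0.56 log2, adjusted p 0.194 in limma). COL8A1, a short-chain network collagen, read 315 and 377 on plastic and 309 and 349 in gel (-0.07 log2). COL18A1, whose product carries the fragment endostatin, read 155 and 105 on plastic and 157 and 174 in gel. It was higher in gel by 0.73 log2 in the ARHGAP8 line and by 0.03 in the empty-vector line, without passing.

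Collagen VI forms beaded filaments from 3 chains. COL6A1 read 281 and 330 on plastic and 412 and 302 in gel, COL6A2 154 and 129 on plastic and 166 and 165 in gel, and COL6A3 12.4 to 14.9. The cultures overlapped for COL6A1, and its 4 tested probe sets ran from -0.34 to 0.21 log2 for culture, so its direction depends on the probes. COL7A1 of the anchoring fibrils (0.06 log2) and COL12A1 and COL16A1 of the fibril-associated collagens (-0.11 and -0.39) did not pass. COL16A1 was lower in gel in both lines, by similar amounts, at 243 and 230 on plastic and 190 and 172 in gel.

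Laminins are trimers of an alpha, a beta and a gamma chain. LAMA4, LAMB1 and LAMC1, whose chains can join in 1 trimer, were above the floor on all arrays. LAMA4 read 329 and 361 on plastic and 407 and 427 in gel, so both gel values lay above both plastic values, but the difference of 0.28 ± 0.18 log2 did not pass (adjusted p 0.425 in limma), and its 3 tested probe sets ran from -0.03 to 0.55. LAMB1 read 518 and 663 on plastic and 825 and 671 in gel (0.34 ± 0.18 log2, adjusted p 0.279 in limma). Nearly all of that came from the empty-vector line, at 0.67 against 0.02 log2. The other tested LAMB1 probe set read 606 and 650 on plastic and 756 and 525 in gel, with 0.32 and -0.31 log2 in the lines. LAMC1 read 958 and 788 on plastic and 982 and 610 in gel (-0.17 log2). LAMA5, LAMB2 and LAMB3 did not pass either (0.06, -0.44 and 0.00 log2), and LAMB3 was just above the floor on the 2 arrays where it exceeded it, at 72.9 and 73.1.

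The partners that tie laminin to collagen IV had 2 tested members. AGRN, the agrin gene, read 841 and 882 on plastic and 1182 and 528 in gel, so its gel values lay on both sides of the plastic ones. HSPG2, the perlecan gene, read 94.8 and 57.4 on plastic and 173 and 59.3 in gel. It was above the floor on both arrays of the empty-vector line and under it on both arrays of the ARHGAP8 line. Of the nidogen genes, NID1 exceeded the floor on the ARHGAP8 gel array, at 97.8 against 47.0 to 54.9 elsewhere, and NID2 on none.

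The remaining matricellular genes did not pass. SPP1, the osteopontin gene, read 3947 and 3118 on plastic and 4579 and 5914 in gel. Its gel values were the higher ones in each line, by 0.21 and 0.92 log2, and the fit gave 0.57 ± 0.20 (adjusted p 0.0992 in limma). A further SPP1 probe set read 779 on the ARHGAP8 gel array and 121 to 169 on the others. TNC, the tenascin-C gene, read 2480 and 2782 on plastic and 2425 and 2535 in gel, a difference of -0.08 ± 0.17 log2 that did not pass, with overlapping cultures. THBS2, a thrombospondin relative, gave 0.21 log2 without passing.

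SPARC, the gene of a collagen-binding matricellular protein, depended on the probe set. The probe set used for the gene read 2561 and 2566 on plastic and 3009 and 1999 in gel, with overlapping cultures and -0.06 log2. The other probe set read 438 and 389 on plastic and 763 and 580 in gel, a difference of 0.69 log2 that passed in the probe set fit (adjusted p 0.0421 in limma). Both gel values of that probe set were above both plastic values, so the 2 probe sets of SPARC differ in direction by more than 0.5 log2.

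FN1, the fibronectin gene, read 1654 and 2313 on plastic and 2837 and 1953 in gel. The empty-vector line was higher in gel by 0.78 log2 and the ARHGAP8 line lower by 0.24, and the average of 0.27 ± 0.20 did not pass (adjusted p 0.484 in limma). Fibulin-1 gene FBLN1 did the reverse, at 131 and 120 on plastic and 25.3 and 150 in gel. FBN2, VCAN and BGN, which encode fibrillin-2 and the proteoglycans versican and biglycan, had differences of 0.13, 0.01 and 0.09 log2, with none passing.

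**Figure D3:**
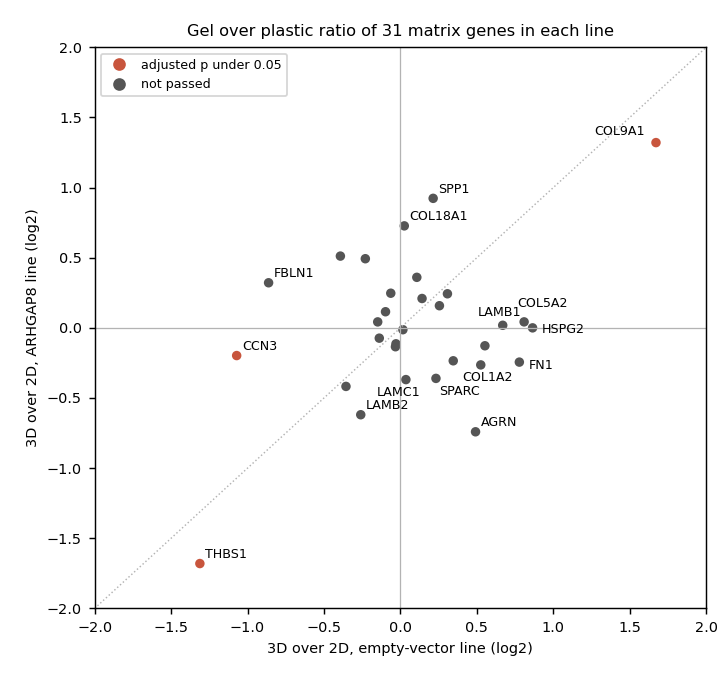
Gel over plastic ratio (log2) of the 31 tested matrix genes for the line with the empty vector (x axis) and the one with ARHGAP8 (y axis), 1 point per gene, with red points for the 3 genes past the adjusted p of 0.05 and the dotted line for equal ratios. THBS1 and COL9A1 lie far from the centre near the dotted line, while FN1, AGRN and SPARC lie at lower right and FBLN1 at upper left.

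At least 2-fold in the same direction in both lines were THBS1 and COL9A1, 2 of 31 tested genes (6.45%), against 1.05% of all tested genes. COL9A1 met the filter only through its 2 gel arrays, where it was high, and its other probe set gave 0.10 log2. The share of 6.45% thus depends on the filter and was not tested. COL9A1 is also the gene counted as higher in gel in each line below. In the empty-vector line alone 1 gene was at least 2-fold higher and 2 were lower in gel (background 1.73% and 1.29%), and in the ARHGAP8 line 1 and 1 (1.81% and 1.96%). The gel ratios of the lines share no array, and across the 31 genes they correlated at 0.41, as against 0.46 across all tested genes. The value of 0.41 depends on THBS1 and COL9A1, since across the other 29 genes the correlation was -0.13. In each case the points share the arrays and their scaling.

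The comparison of the lines asked whether the ARHGAP8 line differed from the empty-vector line in matrix genes. By the additive test in limma, 0 of the 31 passed for the plasmid, against 0.128% of all tested genes. An unadjusted p under 0.05 was reached by 4 of the 31 and by 1078 of all 13239 tested genes. THBS1 came nearest, higher in the ARHGAP8 line by 0.94 log2 on plastic and 0.57 in gel (0.76 ± 0.16, adjusted p 0.0782 in limma). It passed when limma was run on genes exceeding the floor everywhere (adjusted p 0.0235, with a range of 0.0235 to 1.00 over the alternatives). HSPG2 was lower in the ARHGAP8 line, by at least 1.26 log2 in gel and 0.39 on plastic (adjusted p 0.250 in limma). Both are bounds, since its ARHGAP8 signals lay under the floor. HSPG2 met the filter only through its 2 empty-vector arrays, where it was high, so its SE and p depend on the filter and the floor. Its other probe set exceeded the floor on 1 array alone, the empty-vector plastic one at 75.3, and was not tested. LAMC1 was lower by 0.28 on plastic and 0.69 in gel (-0.48 ± 0.16, adjusted p 0.336 in limma) and AGRN was at 0.07 and -1.16. The median over the 31 was -0.03 log2, against 0.00 over all tested genes. Because each plasmid had 1 stable line, an effect of ARHGAP8 cannot be told apart from a difference between separately selected cell populations.

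By size alone, 0 of the 31 were at least 2-fold apart between the lines on plastic (background 0.461%) and 3 were in gel (2.44%). These were HSPG2 and AGRN, lower in the ARHGAP8 line (background 1.33%), and FBLN1, higher (1.11%). FBLN1 was higher by 1.05 log2 or more, with its empty-vector gel signal under the floor, and had 1 tested probe set. HSPG2 met the filter only through the empty-vector line, where it was high. All 3 rest on the gel arrays, of which that of the ARHGAP8 line carried the raised ribosomal RNA signal. Its part in them was not tested.

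Whether the gel response depended on the plasmid has no test here, as no residual degree of freedom is left. Of the 31 genes, 8 were higher in gel in the empty-vector line and lower in gel in the ARHGAP8 line, 25.8% against 16.6% of all tested genes. They were COL1A2, COL6A1, COL7A1, LAMB3, LAMC1, AGRN, SPARC and FN1. The opposite pattern held for 6, or 19.4%, against 18.6%. Of the 8, LAMB3 was at 0.02 and -0.01 log2, with signals at the floor. The other tested probe sets of COL7A1 (0.28 and 0.66) and SPARC (0.80 and 0.58) rose in both lines. That of AGRN fell in both (-0.26 and -0.96), that of LAMC1 shared the pattern, and those of COL6A1 were mixed. FN1 is described below. A gel ratio of opposite sign and at least 2-fold apart between the lines was found for AGRN, FN1 and FBLN1, 3 of 31 against 3.21% of all tested genes. FBLN1 had 1 tested probe set. At least 1.5-fold higher in gel in the line with the empty vector were 5 of the 31 (background 8.58%), which were COL5A2, COL9A1, LAMB1, HSPG2 and FN1. COL9A1 and HSPG2 met the filter only through arrays where they were high, and none of these counts was tested.

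The FN1 pattern of opposite signs was seen in 5 of its 6 tested probe sets. All 6 tested FN1 probe sets were higher in gel in the empty-vector line, by 0.64 to 0.85 log2, and 5 of the 6 were lower in gel in the ARHGAP8 line, with a range of -0.91 to 0.07. Seen between the lines, all 6 were higher in the ARHGAP8 line on plastic, by 0.14 to 0.48, and lower in gel, from -1.54 to -0.39, and the values of -0.91 and -1.54 are bounds, since that probe set was under the floor on the ARHGAP8 gel array. Several of these probe sets are of the x_at or s_at type and may share target sequence. Both LAMC1 probe sets were lower in the ARHGAP8 gel array than in the empty-vector one, at -1.01 and -0.69 log2, and both tested AGRN probe sets were at -1.16 and -0.87. Every line difference in gel given here uses the ARHGAP8 gel array, which carried the raised ribosomal RNA signal. Likeness between probe sets does not check that array, and its part was not tested. The gel over plastic ratio of AGRN in the empty-vector line differed between its probe sets, at 0.49 and -0.26.

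**Figure D4:**
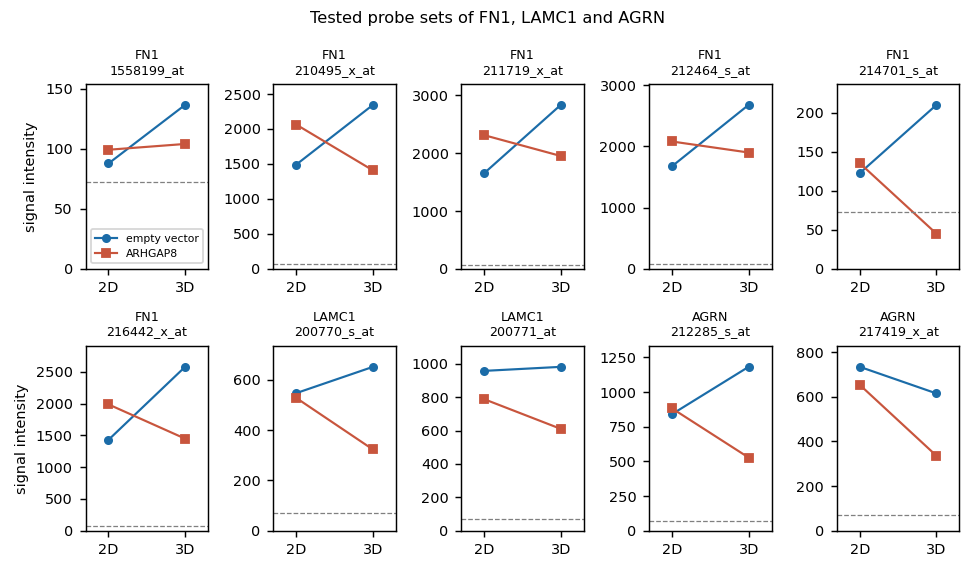
MAS5 signal on plastic (2D) and in gel (3D) for the tested probe sets of FN1, LAMC1 and AGRN, with 1 array per point, lines joining the arrays of 1 cell line and the floor of 72.3 dashed. In all 6 FN1 panels the ARHGAP8 line starts above and ends below the empty-vector line, with gel values from 0.39 to 1.54 log2 lower. All ARHGAP8 gel points come from the array with the raised ribosomal RNA signal.

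Other genes of the same system were read from 4 lists. Of 22 other collagen and laminin genes 10 were tested, 0 rose and 0 fell in gel by limma (3 at an unadjusted p under 0.05), and the median was 0.03 log2. Of 61 other matrix glycoproteins 35 were tested, 3 rose and 1 fell, with a median of 0.04. CCN1, a matricellular relative of CCN3 and a target of YAP and TEAD, read 309 and 719 on plastic and 227 and 218 in gel and fell by 1.09 log2. SPARCL1, the SPARC relative hevin, read 103 and 66.4 on plastic and 169 and 160 in gel and rose by at least 0.93, since 1 plastic value was under the floor. MFGE8, an integrin-binding milk fat globule protein, rose by 0.90 and IGFBP7, a secreted insulin-like growth factor binding protein, by 0.54, though its other tested probe set gave 0.11. In the probe set fit none of these 3 passed, with adjusted p of 0.0702, 0.0699 and 0.0925 in limma. Passing shares of 2.83% higher and 4.15% lower in gel over all tested genes are the background for these lists too. For counts at an unadjusted p under 0.05 the background is 2778 of 13239 genes.

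Among genes of collagen folding, modification and export, 33 of 40 were tested, 2 rose and 2 fell, and the median was 0.11 log2. P4HA1, the catalytic subunit of collagen prolyl 4-hydroxylase, read 433 and 477 on plastic and 1026 and 946 in gel and rose by 1.12 ± 0.16 (adjusted p 0.000226 in limma). ERO1A, the oxidase that drives disulfide formation in the endoplasmic reticulum, read 888 and 997 on plastic and 2239 and 1884 in gel and rose by 1.13, and its 3 probe sets all passed in the probe set fit. Both are known targets of the hypoxia response. SERPINH1, which encodes the collagen chaperone HSP47, read 624 and 640 on plastic and 406 and 238 in gel and fell by 1.02 ± 0.20 (adjusted p 0.00272 in limma). TRAM2, a translocon gene linked to type I collagen synthesis, read 889 and 1021 on plastic and 696 and 455 in gel and fell by 0.76. Members of the collagen synthesis list thus moved in both directions, while the collagen I chains themselves did not pass. P4HB and PLOD2, a subunit of the same hydroxylase and a lysyl hydroxylase, gave -0.08 and 0.18 log2 without passing.

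Of 29 matrix receptor genes 21 were tested, 0 rose and 1 fell, with a median of 0.22 log2. The receptor that fell was SDC1, the heparan sulfate proteoglycan syndecan-1, at 899 and 805 on plastic and 513 and 458 in gel (-0.81 ± 0.16 log2, adjusted p 0.00363 in limma). Its fall was of the same size in both lines, and its other tested probe set gave -0.55 without passing. By limma 0 genes of these 4 lists passed for the plasmid. The counts at an unadjusted p under 0.05 were 1 for the other collagens and laminins, 6 for the glycoproteins, 5 for collagen synthesis and 2 for the receptors. Over all tested genes the plasmid count was 1078 of 13239.

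**Figure D5:**
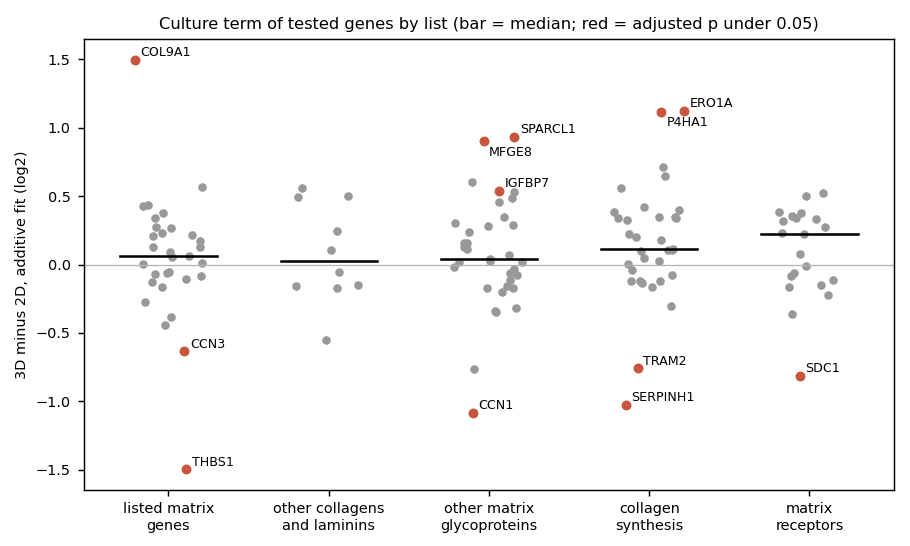
Gel minus plastic difference (log2, additive fit) of the tested genes in the listed matrix genes and in 4 further lists, 1 point per gene with random horizontal spread, black bars for medians and red points for genes past the adjusted p of 0.05. Medians lie between 0.03 and 0.22, and the red points go both ways in every list that has more than 1 of them.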

How the data were processed

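Total RNA was amplified by 2 rounds of in vitro transcription and hybridised to Affymetrix arrays, per the labels' protocols. The authors deposited 1 linear signal intensity per probe set and array, and the submitters' processing notes name MAS5, without a version. Of 54675 probe sets 62 were controls. From these signals, each array was rescaled to a 2% trimmed mean of 150.0, floored at 72.3 and log2-transformed. Symbols came from the platform annotation (41091 probe sets with 1 symbol, 1801 with several, 11721 with none) and were updated through RefSeq gene identifiers for 41037. A gene took its probe set with the highest mean log2 value. The additive limma 3.58.1 fit (R 4.3.3, eBayes with an intensity trend, 19.4 prior degrees of freedom, two-sided, Benjamini-Hochberg over 13239 genes) was tested on simulated data. The simulated data had the same noise for all genes and the same gel shift in both lines, for genes well above the floor. They do not check floored genes such as COL9A1 or gel ratios that differ between the lines. Array number, 1 per group, limits the precision.

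Members and lists were chosen with earlier results of these data known. Array values were to be printed for members past either term, at least 2-fold in the same direction in both lines or cultures, or with tested probe sets of opposite sign over 0.5 log2 apart, and for chain partners. Array values of the other members, as of SPP1, TNC, FN1 and AGRN, were added after they were seen. From the other lists, genes past a term were named; COL4A4, P4HB and PLOD2 were named after their values were seen. Alternatives covered scaling, floor, filter, probe set summary, variance trend, model terms and arrays used.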

Additional observations from a re-analysis of the deposited data

Results flagged for a closer look

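The gel over plastic ratio had opposite signs in the 2 lines and was at least 2-fold apart between them for 3 matrix genes. That is 3 of 31 tested, against 3.21% of all tested genes, and the difference was not tested. On the log2 scale the ARHGAP8 line minus the empty-vector line was -1.23 for AGRN, -1.02 for FN1 and 1.18 for FBLN1. The empty-vector gel signal of FBLN1 was under the floor, and FBLN1 had 1 tested probe set. The other tested AGRN probe set was lower in gel in both lines (-0.26 and -0.96). Control probe sets, which enter no comparison, gave median signals of 626 for 18S and 1390 for 28S ribosomal RNA on the ARHGAP8 gel array, above the other 3 arrays. Those medians were 27.7 to 49.4 and 94.4 to 119 there.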

How the results depend on the processing

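For gel against plastic, 3 matrix genes passed in limma. The count was 2 or 3 under 6 of the alternatives, with THBS1 in all 6, COL9A1 in 5 and CCN3 in 1. COL5A1 (-1.71 log2) passed with the floor at the 25th percentile, and SPP1 (0.57) where every array had to exceed the floor and COL9A1 was not tested. It was 1, THBS1, with the floor at the 75th percentile, and 0 without a filter, with the mean of a gene's probe sets, without the plasmid in the model and with any 1 array left out (range 0 to 0). The last was chosen after the data were seen and also drops the other term from the model. Counts over all genes under these alternatives are not given, so a count of 0 is not a trait of the matrix genes. Scaling moved the split from 1 higher and 2 lower to 1 and 1 after quantile and cyclic loess normalization, as CCN3 missed the threshold. The probe set count of 6 became 5 under each of 3 alternatives. For the plasmid the count was 0, with 1 on genes exceeding the floor everywhere (THBS1) and a range of 0 to 0 with any 1 array left out. THBS1, the gene nearest to passing there, was at -0.082 to 1.60 log2 with any 1 array left out. The negative value, without the ARHGAP8 plastic array, comes from a model without culture, so it sets ARHGAP8 in gel against the empty vector in both cultures, and the differences within plastic and within gel were 0.94 and 0.57. THBS1 and COL9A1 kept the sign of their gel difference under every alternative that gave them a value, at -1.97 to -0.68 and 0.20 to 2.22 log2. Signals near the floor limit what can be said of low genes. With 1 array per combination there were no replicates to pair, and the labels carry no replicate numbers. The plasmid term already pairs gel with plastic within each line.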
